A study of Mus musculus with 12 samples.

Results

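CC chemokines are small secreted proteins that draw leukocytes out of the blood and into tissue. The set described here was chosen by name and holds 10 of the 52550 genes in the count table: Ccl2, Ccl3, Ccl4, Ccl5, Ccl7, Ccl8, Ccl11, Ccl17, Ccl20 and Ccl22. Transcripts of all 10 were counted, and 9 of them passed the filter on low counts and were among the 15885 protein-coding genes tested, Ccl8 being the exception. The libraries are bulk RNA-seq of whole lungs of C57BL/6J-background mice on postnatal day 5, with 1 mouse per library and 3 libraries in each of 4 groups. WT mice carried both functional copies of adrenomedullin (Adm), and Adm+/- mice carried a single functional copy (haplodeficiency). Mice of both genotypes were given lipopolysaccharide (LPS), the endotoxin of Gram-negative bacteria, here from E. coli O55:B5, by intraperitoneal injection at 6 mg/kg in 3 daily doses on postnatal days 3 to 5, or an equal volume of phosphate-buffered saline (PBS), with lung collection 6 h later on the last of these days. Replicates carry the numbers of their libraries, namely 3, 4 and 5 for WT PBS, 9, 10 and 11 for WT LPS, 6, 7 and 8 for Adm+/- PBS, and 1, 2 and 12 for Adm+/- LPS, and values of a group are given in this order. Total counts ranged from 22.4 to 28.4 M in WT PBS, 28.2 to 38.1 M in WT LPS, 24.4 to 33.1 M in Adm+/- PBS and 28.6 to 33.6 M in Adm+/- LPS.

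A CC chemokine carries a pair of adjacent cysteines near its amino terminus, binds a G protein-coupled receptor of the Ccr family on a leukocyte and guides that cell along a gradient. In the lung, macrophages, epithelium, endothelium and fibroblasts make CC chemokines when endotoxin or the cytokines Tnf and Il1b reach them, and many of these genes are switched on through NF-kappa B. Ccl2 and Ccl7 act on Ccr2 of monocytes, Ccl3 and Ccl5 on Ccr1 of monocytes, with Ccl4 attracting monocytes and lymphocytes, Ccl11 on Ccr3 of eosinophils, Ccl17 and Ccl22 on Ccr4 of T cells, and Ccl20 on Ccr6 of lymphocytes and dendritic cells.

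Of the 10 genes, 7 lie on chromosome 11 (mm10, Gencode M21), in 2 clusters. Ccl2 (82035571 to 82037453), Ccl7 (82045712 to 82047525), Ccl11 (82057823 to 82062955) and Ccl8 (82115185 to 82116799), all on the plus strand, span 81.2 kb. Ccl5 (83525778 to 83530518, minus strand), Ccl3 (83647844 to 83649355, minus strand) and Ccl4 (83662584 to 83664683, plus strand) span 139.0 kb. Ccl22 (94745590 to 94751699) and Ccl17 (94810453 to 94812036) lie within 66.4 kb of each other on chromosome 8, and Ccl20 (83116766 to 83119167) lies on chromosome 1, all on the plus strand. Ccl2 overlapped Gm17268 on the opposite strand without sharing exon bases, and Gm17268 had between 0 and 2 counts in a library, and none of the other members overlapped an annotated gene.

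RefSeq promoters (GRCm38.p6) were found for 5 of the 10 members, Ccl3, Ccl8, Ccl17, Ccl20 and Ccl22, and the 250 bases before the start were searched for motifs. Those of Ccl20, Ccl3 and Ccl8 are printed 5′ to 3′ on the strand of the gene, since each held a match to 1 of the motifs, and the capitals mark the match. The window of Ccl20 is chr1:83116516-83116765 (plus strand) and its match to the NF-kappa B consensus starts 80 bases before the start of the gene. The window of Ccl3 is chr11:83649379-83649628 (minus strand) and its match to the C/EBP motif TTNCNNAA starts 100 bases before. Both of these matches read on the opposite strand, so the capitals show their reverse complement. The window of Ccl8 is chr11:82114935-82115184 (plus strand) and its TATA box, TATAAA, starts 32 bases before.
Ccl20: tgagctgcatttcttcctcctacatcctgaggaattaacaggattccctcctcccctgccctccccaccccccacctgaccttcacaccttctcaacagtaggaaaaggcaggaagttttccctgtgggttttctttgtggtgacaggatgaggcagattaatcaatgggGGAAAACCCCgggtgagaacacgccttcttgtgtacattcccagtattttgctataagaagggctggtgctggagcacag
Ccl3: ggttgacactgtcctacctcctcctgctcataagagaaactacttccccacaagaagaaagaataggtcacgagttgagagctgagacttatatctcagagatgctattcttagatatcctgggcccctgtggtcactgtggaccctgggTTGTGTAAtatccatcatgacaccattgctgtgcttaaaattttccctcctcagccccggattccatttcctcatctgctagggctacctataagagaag
Ccl8: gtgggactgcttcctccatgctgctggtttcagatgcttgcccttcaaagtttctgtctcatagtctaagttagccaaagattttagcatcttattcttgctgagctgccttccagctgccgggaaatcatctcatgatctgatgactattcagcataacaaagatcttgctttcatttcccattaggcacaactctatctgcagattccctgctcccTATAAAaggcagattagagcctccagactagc
The windows of Ccl17 and Ccl22 held none of these motifs, and the AP-1 motif TGANTCA was in none of the 5. Both strands were searched for NF-kappa B, AP-1 and C/EBP, and the strand of the gene for the TATA box, and no matches overlapped. Of 32851 RefSeq promoters of the same length, 7.25% held the NF-kappa B consensus, 6.75% AP-1, 7.59% the TATA box and 36.8% C/EBP. A match is a description of the sequence, and no binding was measured.

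LPS raised most CC chemokines in both genotypes. Levels are given as TMM-normalized CPM, the counts of a gene per 1 M of effective library size. That size is the library's counts on the 15885 genes tested, multiplied by its TMM factor, and is smaller than its total counts. A gene was called at a Benjamini-Hochberg adjusted p below 0.05 with an absolute log2 fold change above 0.5 in edgeR's quasi-likelihood test of all 15885 genes. In WT mice, 7 of the 9 members tested were called higher after LPS, against 10.5% of all genes tested. Among Adm+/- mice, 9 of 9 were called higher, against 12.8% of all genes. The filter on low counts used all 12 libraries. In the PBS libraries alone, Ccl2, Ccl3, Ccl4 and Ccl20 did not pass it, so these 4 were tested through their LPS libraries. The shares of members called are thus in part set by the filter. The median log2 fold change of the 9 members was 3.13 in WT mice and 4.03 in Adm+/- mice, against 0.01 and −0.01 over all genes tested. Summed over the 10 members, the level was 5.51 ± 3.65 CPM (SD, n = 3) in WT PBS, 41.6 ± 18.4 CPM in WT LPS, 5.09 ± 0.539 CPM in Adm+/- PBS and 76.7 ± 12.3 CPM in Adm+/- LPS. In whole lung, more cells of a type and more RNA per cell cannot be told apart.

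**Figure D1:**
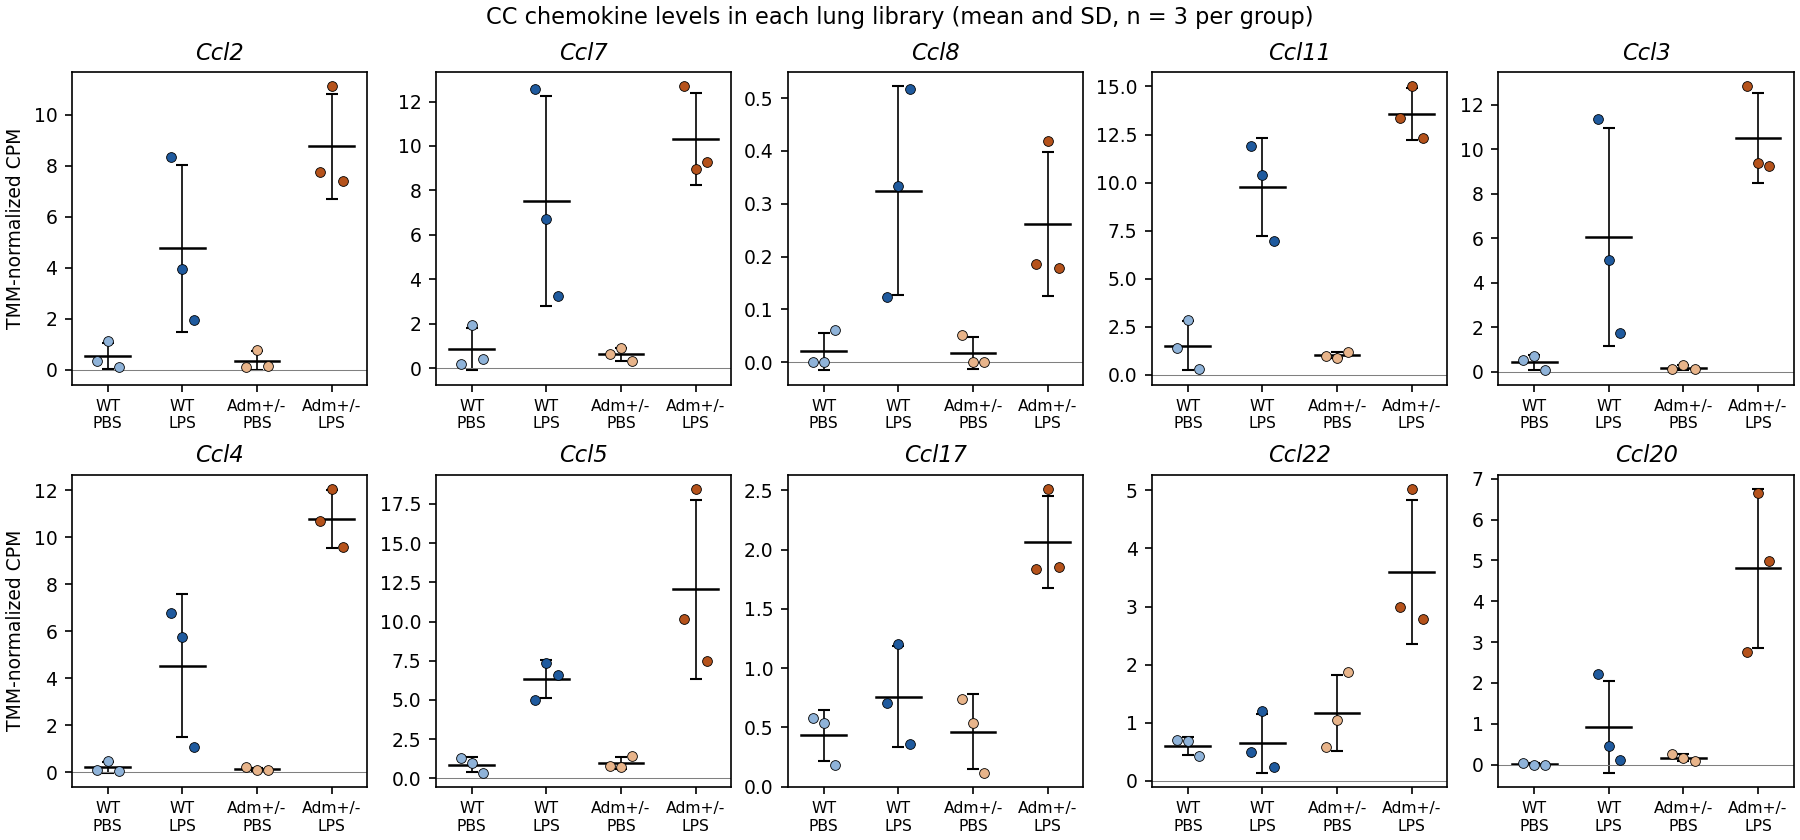
TMM-normalized CPM of the 10 CC chemokines (vertical axis, linear and scaled for each gene) in the 12 lung libraries by group, with a point for each library, a bar for the mean and whiskers for the SD (n = 3). LPS and PBS libraries overlap in WT mice for Ccl17 and Ccl22, and in the panels of Ccl4, Ccl5, Ccl11, Ccl17, Ccl20 and Ccl22 all 3 Adm+/- LPS libraries lie above all 3 WT LPS libraries.

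Ccl2 and Ccl7, which act on Ccr2, rose in both genotypes. Ccl2, monocyte chemoattractant protein 1, had 0.349, 1.12 and 0.124 CPM in WT PBS and 8.35, 3.95 and 1.95 CPM in WT LPS. In Adm+/- mice it had 0.105, 0.777 and 0.159 CPM in PBS and 7.74, 11.1 and 7.41 CPM in LPS. Every LPS library lay above every PBS library of its genotype, and within WT LPS the highest library held more than 4 times the lowest. The log2 fold change of Ccl2 was 3.13 in WT mice (standard error 0.73, adjusted p = 0.0116) and 4.52 in Adm+/- mice (standard error 0.75, adjusted p = 0.00106). Ccl7, monocyte chemoattractant protein 3, had 0.194, 1.94 and 0.432 CPM in WT PBS and 12.6, 6.74 and 3.27 CPM in WT LPS. It had 0.631, 0.912 and 0.318 CPM in Adm+/- PBS and 12.7, 8.97 and 9.30 CPM in Adm+/- LPS. Ccl7 thus reached nearly the same highest level in both genotypes, and LPS and PBS libraries did not overlap in either. The log2 rise of Ccl7 was 3.15 with LPS in WT mice (standard error 0.68, adjusted p = 0.0081), and the Adm+/- mice showed a rise of 4.03 (standard error 0.70, adjusted p = 0.00138). Without WT LPS replicate 9, Ccl2 was not called in WT mice (2.43, adjusted p = 0.0567) and Ccl7 was 2.55. Both estimates rested on single PBS libraries too, being 4.20 for Ccl2 and 4.66 for Ccl7 in WT mice without WT PBS replicate 4, and 5.96 for Ccl2 in Adm+/- mice without Adm+/- PBS replicate 7.

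Ccl8, which lies in the same cluster and in mice acts on Ccr8, had the fewest counts of the members under LPS. It had 4, 8 and 13 counts in WT LPS (0.123, 0.333 and 0.518 CPM) and 5, 10 and 5 counts in Adm+/- LPS (0.187, 0.419 and 0.178 CPM). Each PBS group had 1 count in all over its 3 libraries. In WT mice the 25 counts under LPS against 1 under PBS gave a depth-adjusted ratio of 19.2 with a 95% counting interval of 3.14 to 787. In Adm+/- mice 20 counts against 1 gave 18.8 with an interval of 3.00 to 777. These intervals cover counting error only. Ccl8 was left out of the test by the filter on low counts, and with no filter it was called in both genotypes (adjusted p = 0.0294 in WT and 0.0251 in Adm+/- mice).

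Ccl11, eotaxin, was among the members with the least spread under LPS. WT PBS libraries had 1.4, 2.86 and 0.309 CPM and WT LPS libraries 11.9, 10.4 and 6.97 CPM. Adm+/- PBS libraries had 1.0, 0.878 and 1.19 CPM and Adm+/- LPS libraries 13.4, 15 and 12.3 CPM. LPS and PBS libraries lay apart in both genotypes, and each Adm+/- LPS library exceeded each WT LPS library. The log2 fold change was 2.65 in WT mice (standard error 0.46, adjusted p = 0.00283) and 3.72 in Adm+/- mice (standard error 0.48, adjusted p = 0.000264), and the WT value was 3.40 without WT PBS replicate 4. Its receptor Ccr3 had 4 counts over WT PBS and 33 over WT LPS, with at most 0.740 CPM in any WT LPS library. In Adm+/- mice Ccr3 had 4 counts over PBS and 7 over LPS, and it was not tested. The summed level of 6 eosinophil genes was 4.38 to 5.83 CPM in WT LPS and 4.08 to 6.45 CPM in Adm+/- LPS, against 2.66 to 6.99 CPM in WT PBS and 4.63 to 5.29 CPM in Adm+/- PBS. Siglecf, which alveolar macrophages also express, made up most of that sum (4.19 ± 0.440 CPM under LPS in WT mice, 4.54 ± 1.12 CPM in Adm+/- mice) and was the 1 gene of the 6 that passed the filter on low counts. Of the others, Prg2, a granule protein, had 2 counts over WT PBS and 32 over WT LPS, and 5 and 21 in Adm+/- mice. Il5ra, the receptor of interleukin 5, had 27 and 5 counts in WT mice and 25 and 11 in Adm+/- mice, and these genes are named after their values were seen.

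The macrophage inflammatory proteins Ccl3 and Ccl4 had the highest fitted fold changes of the members tested in Adm+/- mice, and in WT mice the highest after Ccl20. Ccl3, macrophage inflammatory protein 1 alpha, had 0.505, 0.728 and 0.0618 CPM in WT PBS and 11.4, 5.03 and 1.75 CPM in WT LPS. Its levels were 0.105, 0.304 and 0.119 CPM in Adm+/- PBS and 12.8, 9.38 and 9.26 CPM in Adm+/- LPS. The WT LPS libraries thus spread more than 6-fold, while the Adm+/- LPS libraries lay close together. The log2 rise of Ccl3 was 3.73 in WT mice (standard error 0.70, adjusted p = 0.00404) and 5.77 in Adm+/- mice (standard error 0.77, adjusted p = 0.000307). Ccl4, macrophage inflammatory protein 1 beta, had 0.117, 0.485 and 0.0618 CPM in WT PBS and 6.78, 5.74 and 1.08 CPM in WT LPS. Its Adm+/- levels went from 0.210, 0.101 and 0.0795 CPM to 10.7, 12.1 and 9.58 CPM. All Adm+/- LPS libraries were above the WT LPS libraries. The rise of Ccl4 was 4.31 in WT mice (standard error 0.72, adjusted p = 0.00225) and 6.39 in Adm+/- mice (standard error 0.76, adjusted p = 0.000171). In WT mice Ccl4 was 5.51 without WT PBS replicate 4 and Ccl3 was 2.88 without WT LPS replicate 9, and in Adm+/- mice Ccl3 was 6.47 without Adm+/- PBS replicate 7.

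Ccl5, known as RANTES and also made by T cells and NK cells, had a different order among the WT LPS libraries. It had 1.28, 0.971 and 0.371 CPM in WT PBS and 4.99, 7.36 and 6.61 CPM in WT LPS, with the lowest value in replicate 9, where Ccl2, Ccl3, Ccl4 and Ccl7 were highest. Adm+/- mice had 0.789, 0.710 and 1.43 CPM in PBS and 10.2, 18.5 and 7.52 CPM in LPS. Its log2 fold change was 2.79 in WT mice (standard error 0.44, adjusted p = 0.00168) and 3.61 in Adm+/- mice (standard error 0.44, adjusted p = 0.000185). The summed level of 8 T cell genes was 17.5 to 22.6 CPM in WT PBS, 19.2 to 20.2 CPM in WT LPS, 17.6 to 19.9 CPM in Adm+/- PBS and 16.4 to 20.1 CPM in Adm+/- LPS. Within this list Il7r, which other leukocytes also express, rose with LPS by a log2 fold of 1.36 in WT (adjusted p = 0.0214) and 1.24 in Adm+/- lungs (adjusted p = 0.0221), and Cd3d and Lck, which serve T cell receptor signalling, fell in Adm+/- mice, at −0.97 (adjusted p = 0.0271) and −0.72 (adjusted p = 0.0483). In WT mice Il7r, at 2.73 CPM in PBS and 7.10 CPM in LPS, was the 1 of 7 tested genes of the list with an estimate above 0, the median of the 7 was −0.24, and means went from 4.77 to 3.35 CPM for Lck (not called) and from 2.32 to 0.964 CPM for Trac (not tested). These 4 genes are named after their values were seen.

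The ligands of Ccr4 were called after LPS in Adm+/- mice and not in WT mice. Ccl17 had 0.583, 0.534 and 0.185 CPM in WT PBS and 0.709, 1.21 and 0.358 CPM in WT LPS, so that the ranges overlapped. In Adm+/- mice it had 0.736, 0.541 and 0.119 CPM in PBS and 1.83, 2.51 and 1.85 CPM in LPS, with no overlap. Its log2 fold change was 0.74 with LPS in WT mice (standard error 0.59, adjusted p = 0.385) and 2.17 in Adm+/- mice (standard error 0.55, adjusted p = 0.0113). Ccl22, also on chromosome 8, had 0.699, 0.679 and 0.432 CPM in WT PBS and 0.493, 1.21 and 0.239 CPM in WT LPS. It had 0.579, 1.05 and 1.87 CPM in Adm+/- PBS and 2.99, 5.03 and 2.78 CPM in Adm+/- LPS. The Ccl22 libraries of WT mice overlapped between treatments and those of Adm+/- mice did not. Ccl22 had a log2 fold change of 0.05 in WT mice (95% interval −1.23 to 1.34, adjusted p = 0.956) and of 1.6 in Adm+/- mice (interval 0.52 to 2.68, adjusted p = 0.0294). A call in a single genotype does not show that the genotypes differ, and the test of that difference gave an adjusted p of 0.753 for Ccl17 and 0.681 for Ccl22. The Ccl22 call in Adm+/- mice was lost without Adm+/- PBS replicate 6 or 7 or Adm+/- LPS replicate 1 or 2 (adjusted p from 0.0544 to 0.118). The summed level of 10 dendritic cell genes, the cells best known for making both chemokines, was 239 to 266 CPM in WT LPS and 275 to 295 CPM in Adm+/- LPS, against 269 to 328 and 257 to 309 CPM in PBS, and its part in these results was not tested. Fscn1, an actin-bundling protein that other cells also make, held 119 ± 22.3 CPM of that sum under LPS in WT mice, against 158 ± 10.2 CPM in Adm+/- mice. Of the 9 genes of the list tested, Itgae was called lower in both genotypes (−0.77, adjusted p = 0.0275 in WT and −0.97, adjusted p = 0.00601 in Adm+/- mice), and Batf3 was called higher in Adm+/- mice, from 2.66 to 8.07 CPM (1.62, adjusted p = 0.0211), and had 2.21 and 3.72 CPM in WT mice. These 3 genes are named after their values were seen.

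Ccl20, macrophage inflammatory protein 3 alpha, a product of epithelium and macrophages, was almost undetected in WT PBS, with 1 count in replicate 3 and 0 in replicates 4 and 5, which allows up to 0.146 and 0.185 CPM. In WT LPS it had 2.22, 0.457 and 0.119 CPM, 86 counts in all, with most of them in replicate 9. The depth-adjusted ratio of 86 counts to 1 was 65.9, with a 95% counting interval of 11.5 to 2633, and Ccl20 was called in WT mice (adjusted p = 0.0172). Adm+/- mice had 0.263, 0.169 and 0.0795 CPM in PBS and 2.77, 6.66 and 4.99 CPM in LPS, and the log2 rise there was 4.83 (standard error 0.86, adjusted p = 0.0017). In Adm+/- mice every LPS library lay above every PBS library, while the lowest WT LPS library, with 3 counts, lay within the level that 0 counts allow in WT PBS and below the highest Adm+/- PBS library. Without WT LPS replicate 9, Ccl20 was not called in WT mice (adjusted p = 0.0670).

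Counting overlap alone, without a fitted model, 8 of the 10 members (7 of the 9 tested) had all WT LPS libraries above all WT PBS libraries, against 18.3% of all genes tested, the exceptions being Ccl17 and Ccl22. For Ccl8 and Ccl20 the lowest WT LPS library (0.123 and 0.119 CPM) was below the 0.146 CPM that 0 counts allow in WT PBS replicate 4, so these libraries were apart in counts only. The same held in Adm+/- mice for 10 of 10 (9 of 9 tested), against 26.6% of all genes. The count of 7 members called in WT mice was 4 in a fit of only the 6 WT libraries, where Ccl2 (adjusted p = 0.0513) and Ccl7 (adjusted p = 0.0585) were not called and Ccl20 did not pass the filter on low counts and was not tested, and 3 when limma-voom tested against a log2 fold change of 0.5.

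**Figure D2:**
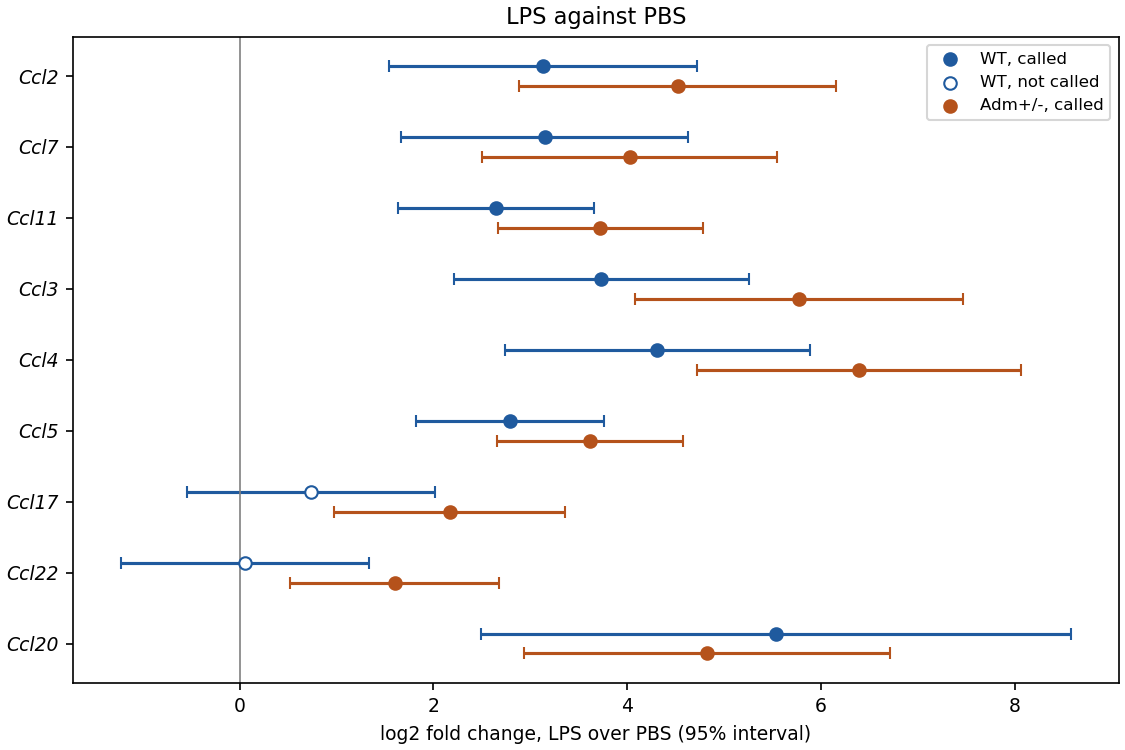
Log2 fold change of LPS over PBS (horizontal axis) for the 9 CC chemokines tested, with 95% intervals, in WT (blue) and Adm+/- mice (orange). Filled points were called and open points were not. The Adm+/- estimate is the larger of the pair for 8 of 9 genes, the exception being Ccl20, and the intervals of the pair overlap for all 9.

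The difference between the LPS responses of the genotypes was tested as the interaction. None of the 9 members was called by edgeR, DESeq2 or limma-voom, and 0 had an unadjusted p below 0.05 in edgeR, while 0.145% of all genes tested were called and 7.85% had an unadjusted p below 0.05. The estimate was positive, a larger response in Adm+/- mice, for 8 of 9 members, against 48.8% of all genes, with a median of 1.39. These members share the same 12 libraries and are not independent of each other. The widest positive differences were 2.08 for Ccl4 (95% interval −0.57 to 4.73, adjusted p = 0.780) and 2.04 for Ccl3 (interval −0.37 to 4.45, adjusted p = 0.736). Ccl22 had a difference of 1.55 (interval −0.13 to 3.23), Ccl17 of 1.43 (interval −0.34 to 3.20) and Ccl2 of 1.39 (interval −0.93 to 3.71, adjusted p = 0.898). Ccl11, Ccl7 and Ccl5 had differences of 1.08, 0.88 and 0.83. That of Ccl20 was −0.71 (interval −4.51 to 3.09), set against the single count of WT PBS, and was positive with limma-voom (0.69). Single libraries moved several of these estimates. Without WT PBS replicate 4, Ccl4 was 0.88, Ccl2 0.32, Ccl11 0.32 and Ccl7 −0.64, and without Adm+/- PBS replicate 7, Ccl2 was 2.83. Ccl3 was 2.89 and Ccl7 1.48 without WT LPS replicate 9, and Ccl22 was 2.31 without WT LPS replicate 10. The intervals leave room for both no difference and several-fold differences.

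A direct comparison of the LPS groups asked whether Adm+/- lungs held more CC chemokine transcripts than WT lungs during endotoxin exposure. Ccl22 was the member called, with a log2 difference of 2.49 (95% interval 1.34 to 3.63, adjusted p = 0.0345), 5.6-fold higher in Adm+/- LPS, with every Adm+/- LPS library above every WT LPS library. With each library left out the difference was 2.11 to 3.24, the highest without WT LPS replicate 10. Among all genes tested 2.05% were called in this comparison. The estimate was above 0 for 9 of 9 members, against 49.2% of all genes, with a median of 0.93 against 0.00. Adm+/- LPS libraries lay above all WT LPS libraries for 6 members, Ccl4, Ccl5, Ccl11, Ccl17, Ccl20 and Ccl22, against 12.2% of all genes tested. An unadjusted p below 0.05 was reached by 5 members, against 14.3% of all genes tested.

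Among these, Ccl20 had a log2 difference of 2.30 (standard error 0.68, adjusted p = 0.113), Ccl17 of 1.45 (standard error 0.51, adjusted p = 0.194), Ccl4 of 1.24 (standard error 0.51, adjusted p = 0.286) and Ccl5 of 0.93 (standard error 0.38, adjusted p = 0.272). Ccl2 at 0.87, Ccl3 at 0.78, Ccl11 at 0.47 and Ccl7 at 0.45 had intervals that included 0 (adjusted p from 0.599 to 0.853). Without WT LPS replicate 11 these were 0.50, 0.35, 0.28 and 0.09, and without WT LPS replicate 9 they were 1.57, 1.63, 0.65 and 1.05, while Ccl4 was 0.78 and 1.66 and Ccl5 was 0.49 without Adm+/- LPS replicate 2. For Ccl8 the ratio of Adm+/- LPS to WT LPS was 0.830 from 20 and 25 counts, with a counting interval of 0.437 to 1.56. Single libraries decided the calls. Without WT LPS replicate 9, Ccl20 was called (4.05, adjusted p = 0.00757) and Ccl22 was not (2.32, adjusted p = 0.0815), and Ccl22 was also lost without WT LPS replicate 11 (adjusted p = 0.118), Adm+/- PBS replicate 7 (0.0594) or Adm+/- LPS replicate 1, 2 or 12 (from 0.0934 to 0.167).

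**Figure D3:**
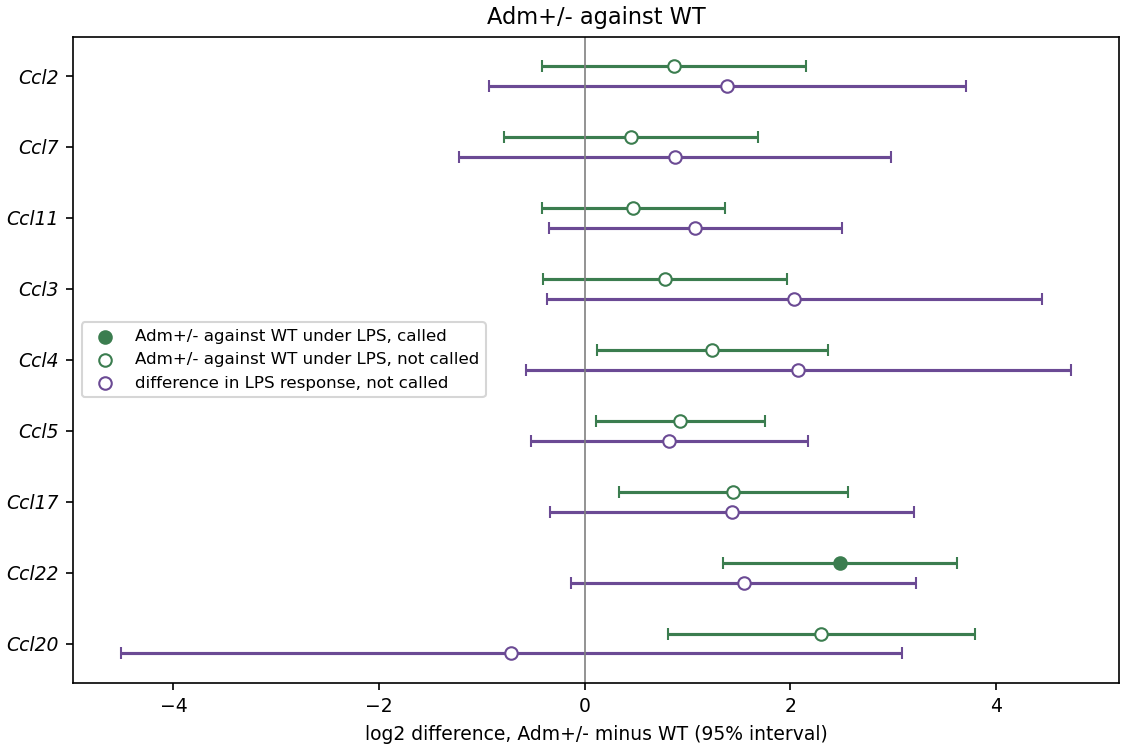
Log2 difference between Adm+/- and WT mice (horizontal axis) with 95% intervals for the 9 CC chemokines tested, under LPS (green) and as the difference in LPS response (purple). Ccl22 under LPS is the filled point (2.49, called), all other points are open, and every interval of the difference in response includes 0.

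Under PBS no member was called between the genotypes. Of the 9 members 0 were called by edgeR, DESeq2 or limma-voom (0% of all genes tested by edgeR), 0 had an unadjusted p below 0.05 (2.17% of all genes), and the estimates ran from −1.26 for Ccl3 to 3.02 for Ccl20 (adjusted p = 0.999 for every member). The Ccl20 value rests on 12 counts in Adm+/- PBS against 1 in WT PBS, a depth-adjusted ratio of 10.2 with a counting interval of 1.51 to 435. It was also the 1 member with all Adm+/- PBS libraries above all WT PBS libraries, against 2.47% of all genes tested, although the lowest of them (0.0795 CPM) was below what 0 counts allow. Its fitted difference was 5.06 without WT PBS replicate 3, a value set against 0 counts and so no bound. Without WT PBS replicate 4, Ccl7 was 1.09, Ccl2 0.55, Ccl4 0.36 and Ccl11 0.15, and without Adm+/- PBS replicate 7, Ccl2 and Ccl3 were both −1.96. A count of 3 corresponds to 0.0925 to 0.185 CPM in these libraries, so PBS levels of Ccl2, Ccl3, Ccl4, Ccl8, Ccl17 and Ccl20, with 3 counts or fewer in 2 to 6 of the 6 PBS libraries, were at or near the limit of detection there. The targeted gene Adm was itself 3.96 to 7.09 CPM in WT PBS, 2.87 to 4.58 CPM in Adm+/- PBS, 4.46 to 8.15 CPM in WT LPS and 3.74 to 6.28 CPM in Adm+/- LPS, overlapping between genotypes, with log2 differences of −0.50 in PBS (adjusted p = 0.999) and −0.55 in LPS (adjusted p = 0.479).

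The order of the members changed between groups. Scaled to exon length, the highest levels in WT PBS were those of Ccl11 (1.41 ± 1.19 CPM per kb, SD, n = 3), Ccl7 (1.07 ± 1.18), Ccl5 (0.911 ± 0.482) and Ccl17 (0.844 ± 0.422), which did not differ beyond their spread. In WT LPS, Ccl7 (9.40 ± 5.87), Ccl11 (9.02 ± 2.35), Ccl3 (7.90 ± 6.38), Ccl4 (6.87 ± 4.60) and Ccl5 (6.59 ± 1.26 CPM per kb) led and lay within the spread of each other. In Adm+/- LPS, Ccl4 led with 16.3 ± 1.88 CPM per kb, followed by Ccl3 (13.7 ± 2.64), Ccl7 (12.9 ± 2.56), Ccl5 (12.6 ± 5.96) and Ccl11 (12.5 ± 1.25), again with neighbours that lay within each other's spread. Ccl4 stood eighth from the top by length-scaled level in Adm+/- PBS (0.198 ± 0.106 CPM per kb). Ccl2 was sixth in both LPS groups, at 4.18 ± 2.88 and 7.69 ± 1.80 CPM per kb. Below it lay Ccl17 (1.47 ± 0.829 and 4.02 ± 0.754), and Ccl8, Ccl20 and Ccl22 took the last places in both (0.278 to 0.656 CPM per kb in WT LPS and 0.512 to 3.38 in Adm+/- LPS).

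The members varied more between mice of a group than most genes did. The median SD of log2 CPM of the 9 members was 1.04 in WT PBS, 1.01 in WT LPS, 0.577 in Adm+/- PBS and 0.273 in Adm+/- LPS, against 0.288, 0.167, 0.187 and 0.117 over all genes tested. Their levels were low, and the part of low counts in this spread was not tested. Among the WT LPS libraries, replicate 9 was highest for 6 of the 10 members and replicate 11 lowest for 8. In Adm+/- LPS, replicate 2 was highest for 8 of 10 and replicate 12 lowest for 7. In WT PBS, replicate 5 was lowest for 8 of 10. That library and Adm+/- PBS replicate 6 had 77.8% and 80.1% of their counts on protein-coding genes, against 84.3% to 87.6% elsewhere. In the same libraries 7 fibroblast genes summed to 43330 and 27650 CPM, against 14330 to 15730 CPM in the other PBS libraries, and their part in the chemokine levels was not tested. Without both of them 6 members were called in WT mice and 8 in Adm+/- mice.

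Other cell types moved with treatment and with single libraries. Over all 14 monocyte and macrophage genes listed, the summed level was 300 to 369 CPM in WT PBS, 726 to 1182 CPM in WT LPS, 263 to 327 CPM in Adm+/- PBS and 894 to 958 CPM in Adm+/- LPS. Cd14, the co-receptor for LPS, named after its values were seen, had 71.1 ± 30.2 CPM under LPS in WT mice against 228 ± 38.8 CPM in Adm+/- mice. It was called between them (log2 difference 1.68, adjusted p = 0.0159). The call was lost without Adm+/- LPS replicate 2 (adjusted p = 0.0836) or 12 (0.0666), in a fit of only the LPS libraries (0.0535) or when limma-voom tested against 0.5 (0.0728). In this comparison 11 of the 14 genes had estimates below 0, with a median of −0.34 and none called lower. Without Cd14, a choice made after seeing the data, the other 13 genes summed to 643 to 1088 CPM in WT LPS and 624 to 751 CPM in Adm+/- LPS. The 10 neutrophil genes summed to 59.5 to 186 CPM in WT PBS, 1698 to 2965 CPM in WT LPS, 40.7 to 68.3 CPM in Adm+/- PBS and 1606 to 1922 CPM in Adm+/- LPS. Both lists were highest in WT LPS replicate 9, and the neutrophil list was highest among the WT PBS libraries in replicate 4, where 5 of the 10 chemokines were also highest. All members of both lists were detected in every group. Genes listed for skeletal muscle and squamous epithelium stood out in WT LPS, and the tissue their transcripts came from was not tested. In WT LPS the 10 skeletal muscle genes summed to 482 to 1370 CPM, against at most 47.9 CPM in any other group. The 10 squamous epithelium genes summed to 3437 CPM in WT LPS replicate 9, 1754 CPM in replicate 11 and 32.6 CPM in replicate 10, against at most 47.2 CPM in any other group. The chemokine sum was 59.5, 42.4 and 22.9 CPM in replicates 9, 10 and 11. Leaving out replicates 9 and 11 left 1 WT LPS library, replicate 10, so only an effect size is given. The log2 difference of Ccl22 between the genotypes under LPS was then 1.57, against 2.49 with all libraries. Replicate 10 had the highest Ccl22 level in WT LPS (1.21 CPM) and still held 1308 CPM of skeletal muscle genes. The part of these cells in the chemokine levels was not tested. Lung epithelium genes summed to 13230 to 17160 CPM over all libraries.

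**Figure D4:**
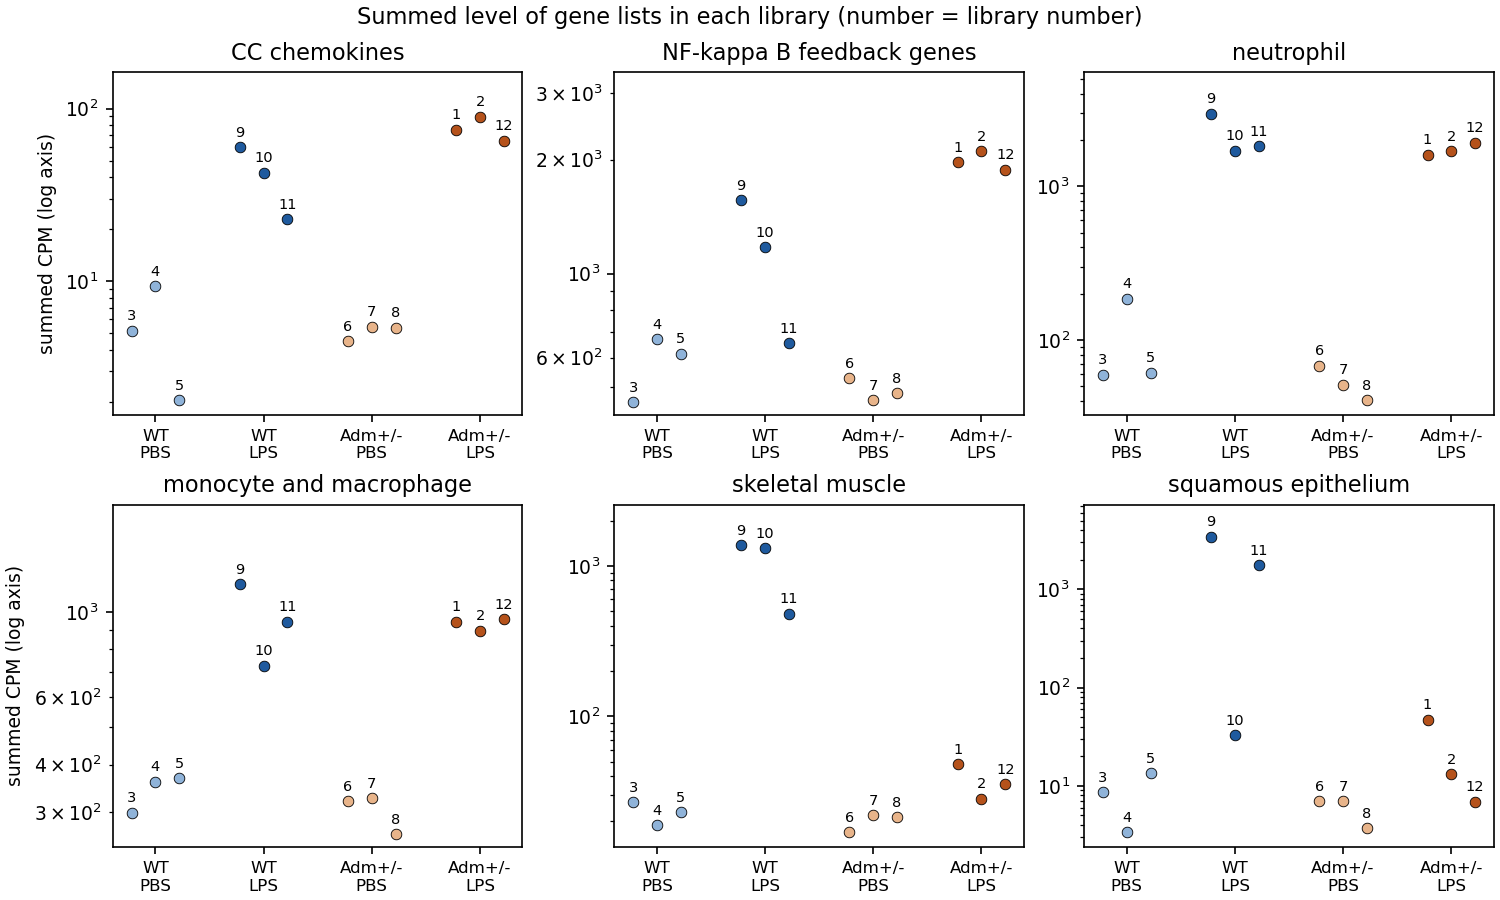
Summed CPM (vertical axis, log scale) of 6 gene lists in each library, by group, with the library number above each point. The CC chemokine sum is 22.9 to 59.5 CPM in WT LPS and 65.2 to 89.6 CPM in Adm+/- LPS, the neutrophil sums of these groups overlap, and skeletal muscle and squamous epithelium genes stand out in WT LPS.

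Other CC chemokines, the receptors and the inducing signals were read from lists of genes. Of 15 other CC chemokines listed, 7 were tested, and 2 were called higher after LPS in WT mice, 3 in Adm+/- mice and 0 lower. Ccl9, a ligand of Ccr1, rose from 3.59 ± 1.26 to 44.7 ± 20.1 CPM in WT mice (log2 rise 3.61, standard error 0.35, adjusted p = 0.000115) and from 3.76 ± 0.588 to 64.0 ± 1.61 CPM in Adm+/- mice (4.08, standard error 0.35, adjusted p = 5.33e-05). Ccl6, made by macrophages and other myeloid cells, rose with LPS by a log2 fold of 1.56 in WT (adjusted p = 0.00556) and 1.69 in Adm+/- (adjusted p = 0.002). Ccl12, the mouse Ccr2 ligand that lies in the cluster of Ccl2, had a log2 change of 1.31 in WT (adjusted p = 0.143) and rose by 1.90 in Adm+/- (adjusted p = 0.0383). None of the 7 was called between genotypes under LPS by edgeR, DESeq2 or limma-voom (0 at an unadjusted p below 0.05 in edgeR).

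The receptors that were called moved in both directions. Values are again log2 fold changes, first for WT and then for Adm+/- mice. Ccr1 rose by 2.09 (adjusted p = 0.00449) and 2.84 (adjusted p = 0.000478). Ackr1, an atypical receptor of venular endothelium that binds chemokines without signalling, rose by 3.85 (adjusted p = 0.00564) and 5.51 (adjusted p = 0.000535). Ccrl2, another atypical receptor, was called in Adm+/- mice at 0.72 (adjusted p = 0.0348) and had 0.27 in WT mice (adjusted p = 0.412). Ccr10 fell, a receptor of lymphocytes for Ccl27 and Ccl28, at −1.43 (adjusted p = 0.0418) and −2.19 (adjusted p = 0.0056). Ccr10, and Ccr2, the receptor of Ccl2 and Ccl7, are named after their values were seen. Ccr2 was 9.64 ± 4.36 and 9.72 ± 3.05 CPM in WT PBS and WT LPS, and 10.01 ± 2.98 and 6.63 ± 0.794 CPM in Adm+/- PBS and Adm+/- LPS, and was not called. Ccr6, the receptor of Ccl20, was not called either (adjusted p = 0.106 in WT and 0.365 in Adm+/- mice), and Ccr3, Ccr4 and Ccr8 were too low to test.

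Of 12 cytokines known to induce CC chemokines, 8 were tested, and 5 were called higher in WT mice and 6 in Adm+/- mice after LPS. In the same order and on the log2 scale, Il1b rose by 2.87 (adjusted p = 0.00216) and 4.79 (adjusted p = 0.000105), and Tnf by 2.89 (adjusted p = 0.00414) and 3.54 (adjusted p = 0.0008). Il33, an alarmin of epithelium and stroma, rose by 1.11 (adjusted p = 0.043) and 2.43 (adjusted p = 0.000564), and Il1a by 2.46 (adjusted p = 0.00657) and 3.57 (adjusted p = 0.000419). Between genotypes under LPS, 1 of the 8 was called, Csf2, the growth factor GM-CSF, named after its values were seen, at 1.42 (adjusted p = 0.0494), and 3 were called by DESeq2, and 0 to 3 with single libraries left out (0 in 9 of these 12 fits). All 11 NF-kappa B feedback genes, inhibitors and subunits that NF-kappa B itself induces, were tested, and 8 were called higher in WT mice and 11 in Adm+/- mice. The WT count was 3 without WT LPS replicate 9, 4 without WT LPS replicate 10 or WT PBS replicate 3, 5 without WT PBS replicate 5, 10 without WT LPS replicate 11, 1 in a fit of only the WT libraries and 0 when limma-voom tested against 0.5, and the Adm+/- count was 11 with each library left out and 10 in that limma-voom test. Nfkbia, which holds NF-kappa B in the cytoplasm, rose by 1.26 (adjusted p = 0.0279) and 2.64 (adjusted p = 0.000413), and Tnfaip3, which encodes the inhibitor A20, by 1.88 (adjusted p = 0.00777) and 3.30 (adjusted p = 0.000247). Tnip1, a partner of A20, rose by 1.47 (adjusted p = 0.00776) and 2.62 (adjusted p = 0.000204). Nfkb1 had 0.30 with LPS in WT (adjusted p = 0.123) and rose by 0.71 in Adm+/- (adjusted p = 0.00224). The 11 genes summed to 1560, 1174 and 655 CPM in WT LPS replicates 9, 10 and 11, the same order as the chemokine sum, and to 1880 to 2101 CPM in Adm+/- LPS. The skeletal muscle list (1370, 1308 and 482 CPM) and the cytokine list (160, 139 and 78.6 CPM) had this order too, so it is not particular to NF-kappa B genes. Between genotypes under LPS 0 of 11 were called by edgeR, and 11 had an unadjusted p below 0.05 (14.3% of all genes tested did). DESeq2 called 5, and edgeR called 3 without WT LPS replicate 9 and 1 without WT PBS replicate 4. The shares of all genes called by DESeq2 or in left-out fits are not given here. These counts, and those of the cytokines, therefore have no background beside them.

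The tested genes whose log2 CPM followed a member most closely over the 12 libraries were, by Pearson's r, Mt1 for Ccl4 (0.993), Npc2 for Ccl11 (0.994), Bcl2a1d for Ccl2 (0.990), Slc7a11 for Ccl3 (0.989), Atp6v1g1 for Ccl7 (0.989), Naa25 for Ccl20 (0.982), Pxk for Ccl5 (0.972) and Arhgap35 for Ccl22 (0.948). LPS and PBS libraries of a genotype did not overlap for most members, and over the 6 LPS libraries alone r was 0.984 for Mt1, 0.856 for Npc2, 0.972 for Bcl2a1d, 0.961 for Slc7a11, 0.834 for Atp6v1g1, 0.988 for Naa25, 0.846 for Pxk and 0.976 for Arhgap35. Each value is a description of the closest of many genes, and all points share the same libraries. Ccl8 and Ccl17 had a mean below 1 CPM and were not compared in this way.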

How the data were processed

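Bulk RNA-seq of 12 mouse lungs was analysed. The authors trimmed reads with Trim Galore, used HISAT2 for alignment to mm10 and featureCounts for counting on Gencode genes, and the table they deposited holds raw read counts of 52550 genes. The Gencode release and the strand option are not given in the sources used here. Groups came from the sample labels. Replicate libraries were compared, and no pair was identical or within sampling noise.

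In R 4.3.3, protein-coding genes that passed filterByExpr (15885 of 21950) were TMM-normalized and then tested in edgeR 4.0.16 (glmQLFit, glmQLFTest) in 1 fit of the 12 libraries, with 8 residual degrees of freedom, no covariate and 5 contrasts. Adjusted p-values are Benjamini-Hochberg values over all genes tested, two-sided, and intervals are at 95%. Alternatives used limma 3.58.1, DESeq2 1.42.0, other scalings and filters, and left out libraries. Positions and exon lengths came from Gencode M21. Ratios of low counts have exact binomial intervals. Reads had no molecular identifiers, so these intervals cover counting error only.

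The members and gene lists were chosen with earlier results of these data known. All 10 members are named. Of each other list, at most the 4 genes of highest mean CPM among those called in at least 1 comparison are named, and exceptions are stated. A gene of the receptor list is not reported here, and the counts over that list are left out. For likeness, the tested gene with the highest r was taken for each member with a mean of at least 1 CPM.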

Additional observations from a re-analysis of the deposited data

How the results depend on the processing

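The counts of members called in the 5 comparisons and the members' log2 fold changes were recomputed under 22 alternatives, except that the difference in response needs all groups and was not fitted to only the groups compared, where Ccl20 in WT mice and Ccl2, Ccl3, Ccl4 and Ccl20 under PBS did not pass the filter on low counts. Of these alternatives, leaving out WT LPS replicates 9 and 11 together was chosen after seeing the data. It left 1 WT LPS library, so its counts called are not given. Replicate numbers are library numbers and carry no information on pairing of mice, so no paired analysis was run. The count called in WT mice after LPS, 7, was 3 when limma-voom tested against 0.5, 4 in a fit of only the groups compared, and 5 to 7 with each library left out (5 without WT LPS replicate 9). In Adm+/- mice it was 8 to 10 against 9. Between genotypes under LPS, the 1 member called became 0 with limma-voom against 0.5 and in the fit of only the groups compared, and 0 to 1 with each library left out. The counts of 0 for the difference in response and under PBS were 0 in every alternative run that kept more than 1 library in each group fitted. With RLE factors, upper quartile factors, DESeq2 and limma-voom, the counts in the 5 comparisons were 7, 9, 0, 1 and 0.

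Several estimates changed sign. In WT mice Ccl22 was −0.22 with limma-voom (against 0 or 0.5), −0.12 without the PBS libraries of low protein-coding share and −0.71 to 0.43 with each library left out. The difference in response of Ccl20 was 0.69 with limma-voom, 0.37 without WT LPS replicates 9 and 11 and −2.76 to 1.04 with each library left out, and that of Ccl7 was −0.64 to 1.48. Under PBS, Ccl7 was 0.10 with limma-voom, Ccl17 was −0.19 with limma-voom and −0.00091 with upper quartile factors, and Ccl5 and Ccl17 were −0.10 and −0.71 without the PBS libraries of low protein-coding share. With each library left out they were −0.96 to 1.09 for Ccl7, −0.40 to 0.48 for Ccl17 and −0.28 to 0.50 for Ccl5, and Ccl2, Ccl4 and Ccl11 were −1.96 to 0.55, −1.25 to 0.36 and −1.04 to 0.15. The cause was not tested. Depth limits the PBS levels of Ccl2, Ccl3, Ccl4, Ccl8, Ccl17 and Ccl20, and 3 mice in a group limit every estimate.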
